A study of Arabidopsis thaliana with 12 samples.

Results

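SAG29, SWEET17 and SFP1 are 3 Arabidopsis genes for sugar transporters, and their transcripts were followed in a cell culture treated with the stress hormone abscisic acid (ABA), with the chemical dimethylthiourea (DMTU), or with both. Each gene was taken from the 1 probe set annotated to it alone, so the 3 genes stand for 3 of the 22810 probe sets of the array. The genes were chosen by their measured levels in the 4 treatment groups of these same arrays, which were known to differ. For that reason their levels and changes are given as a description, with standard errors but with no test.

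RNA came from T87 suspension cells, a line of undifferentiated cells of the Columbia (Col-0) background, grown under a cycle of light and dark in a medium with 3% sucrose and the synthetic auxin 1-naphthaleneacetic acid. Cultures 5 days old were treated for 20 h and measured on 12 single-colour arrays, 3 in each of 4 groups: control (ethanol), ABA (50 µM), DMTU (5 mM, with ethanol in place of ABA) and ABA+DMTU (both agents). The study asked which genes ABA regulates in these cells and whether DMTU, used as a scavenger of hydrogen peroxide, alters their activation. A suspension line lacks the phloem, the leaf and the seed in which sugar carriers are mostly studied. Of 13 listed markers of differentiated cells only FMA, the guard cell regulator, had a named probe set, at a log2 level between 3.95 ± 0.04 in control and 4.10 ± 0.06 in ABA arrays (SD, n = 3).

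SWEET proteins are small membrane channels that let sugars pass down their gradient, either out of the cell or across the membrane of the vacuole, the main store of sugars inside a plant cell. SAG29, also named SWEET15, is a sucrose carrier of the cell membrane known from senescing leaves and from the filling of the embryo. SWEET17 carries fructose across the vacuolar membrane. SFP1 belongs to another class, the ERD6-like branch of the monosaccharide transporters, and is known as a transcript that accumulates in senescing leaves. In the RefSeq gene table of the assembly TAIR10.1, SAG29 and SFP1 lie on chromosome 5 and SWEET17 on chromosome 4. The next protein-coding gene after SFP1 on that chromosome is its close relative SFP2.

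Values are log2 probe set levels as deposited, so a step of 1 is a doubling, and levels are compared only within a gene. The lower quartiles of the 12 arrays lay between 3.84 and 3.98, their medians between 5.78 and 6.05 and their upper quartiles between 7.93 and 8.00. Replicate 1 stood apart most in control and in ABA. The SD of its difference over probe sets was 0.565 (from replicate 2) and 0.550 (from replicate 3) in control. In ABA it was 0.505 and 0.465, whereas replicates 2 and 3 differed with an SD of 0.167 in control and 0.174 in ABA. ABA+DMTU replicate 1 stood apart less (0.406 and 0.400, against 0.244 between replicates 2 and 3). DMTU replicate 3 did so too (0.353 from replicate 1 and 0.316 from replicate 2, against 0.210 between those 2). Control probe sets also differed between groups. The bioB spike-in averaged 7.31 ± 0.28 (control), 7.56 ± 0.39 (ABA), 8.19 ± 0.06 (DMTU) and 8.20 ± 0.39 (both agents). The ubiquitin 3' minus 5' difference, a sign of RNA quality, lay between 0.88 and 1.01 in control, 0.64 and 0.72 in ABA, 1.28 and 1.41 in DMTU and 1.03 and 1.17 in ABA+DMTU arrays. It thus differed with ABA as well as with DMTU. The same difference for GAPDH overlapped between control (0.35 to 0.55) and DMTU arrays (0.20 to 0.57), as did those for actin and for another GAPDH pair. For another ubiquitin pair control (0.26 to 0.39) and DMTU arrays (0.43 to 0.52) did not overlap. Nor did they for another actin pair (0.64 to 0.91 and 1.06 to 1.15). The part of these shifts in the values below was not tested, and a batch shared by the DMTU arrays cannot be told apart from DMTU.

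SAG29 (AT5G13170) lay between the lower quartiles and the medians of the arrays without ABA, and its difference with ABA was among the largest. Control replicates 1, 2 and 3 had SAG29 levels of 4.67, 5.40 and 5.33. The ABA arrays had 12.32, 12.25 and 12.16, the tightest SAG29 group. The 3 ABA arrays lay 6.76 log2 units or more above every control array. The change was 7.11 ± 0.19 (SE), or 138-fold higher, which was place 14 among the positive changes of 22746 probe sets in ABA against control. In RNA of a whole culture, more cells with the transcript and more transcript per cell cannot be told apart.

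With DMTU alone SAG29 was about as low as in control. The DMTU arrays had 5.21, 5.41 and 4.96, which overlapped with the control arrays, and the change in DMTU against control was 0.06 ± 0.19. Its sign turned without control replicate 1, to -0.17, and without DMTU replicate 2, to -0.05. With both agents the 3 arrays had 10.03, 9.78 and 10.16. Every SAG29 value with both agents lay above every DMTU array and below every ABA array.

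The SAG29 level thus differed less with ABA in the arrays that also had DMTU. The change in ABA+DMTU against DMTU was 4.80 ± 0.19, or 27.8-fold higher, which is 67.5% of the log2 change without DMTU. In ABA+DMTU against ABA the level differed by -2.25 ± 0.19, which is 4.76-fold lower. The interaction, the ABA change with DMTU minus that without it, was -2.31 ± 0.27. The order of SAG29 levels was control and DMTU together at the bottom, then ABA+DMTU, then ABA, and only control and DMTU did not differ beyond their spread.

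**Figure D1:**
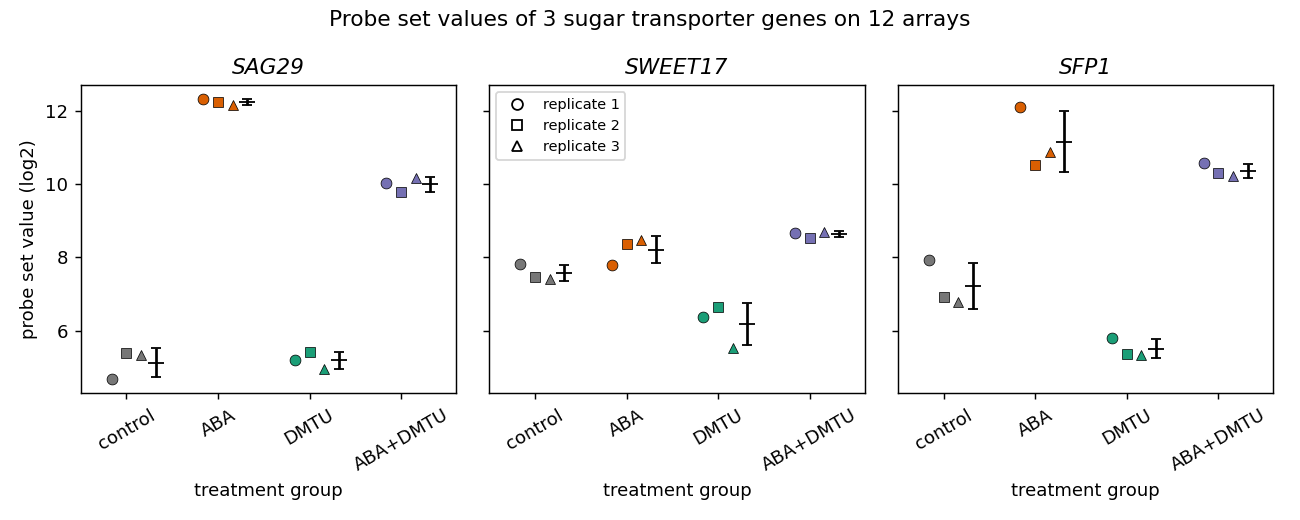
Log2 probe set values of SAG29, SWEET17 and SFP1 (vertical axis) on the 12 arrays by treatment group (horizontal axis). Symbols mark replicates 1, 2 and 3 and the bars give the mean ± SD of 3 arrays; SAG29 in ABA sits at 12.24 ± 0.08 and in ABA+DMTU at 9.99 ± 0.19, while the DMTU arrays of SWEET17 and SFP1 sit below their control arrays.

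SWEET17 (AT4G15920) differed little with ABA alone and more when DMTU was present. Its control arrays had 7.81, 7.48 and 7.41, and its ABA arrays 7.79, 8.38 and 8.46. The groups overlapped, since ABA replicate 1 lay below control replicate 1. The change was 0.64 ± 0.26, and it was 0.97 ± 0.27 without those 2 arrays. At equal replicate numbers, which no label pairs, the difference between ABA and control was -0.02, 0.90 and 1.05.

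The DMTU arrays had SWEET17 levels of 6.38, 6.64 and 5.53, all below the control arrays. The change in DMTU against control was -1.38 ± 0.26, or 2.61-fold lower. With both agents the arrays had 8.67, 8.54 and 8.70, all above the 3 DMTU arrays by at least 1.90 log2 units.

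From this lower start the SWEET17 difference in ABA+DMTU against DMTU was 2.45 ± 0.26, or 5.47-fold higher. The interaction was 1.81 ± 0.37. The 2 groups with ABA lay close to each other: ABA+DMTU averaged 8.64 ± 0.08 and ABA 8.21 ± 0.37 (SD, n = 3), and the highest ABA array was 0.08 below the lowest ABA+DMTU array. Their difference of 0.42 ± 0.26 fell to 0.21 without ABA replicate 1. The SWEET17 order was DMTU, control, ABA, ABA+DMTU, where ABA overlapped with control and was separated from ABA+DMTU by the narrow gap given.

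SFP1 (AT5G27350) was higher with ABA both without and with DMTU, and was lower with DMTU alone. Control arrays had 7.94, 6.92 and 6.79, and ABA arrays 12.10, 10.51 and 10.86. Replicate 1 was the highest array of both groups, and every ABA array lay at least 2.57 log2 units above every control array. The change was 3.94 ± 0.39, or 15.4-fold higher. At equal replicate numbers, which no label pairs, the differences were 4.16, 3.59 and 4.07.

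The DMTU arrays had SFP1 levels of 5.81, 5.38 and 5.34, all below the control arrays. The change in DMTU against control was -1.71 ± 0.39, or 3.27-fold lower. The arrays with both agents had 10.57, 10.29 and 10.22, which overlapped with the ABA arrays and lay at least 4.41 above the DMTU arrays.

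The change of SFP1 in ABA+DMTU against DMTU was 4.85 ± 0.39, or 28.9-fold higher. The interaction was 0.91 ± 0.55, and between 0.55 (without control replicate 1) and 1.38 (without ABA replicate 1) when 1 array was left out, with 0.59 without ABA replicate 2. In ABA+DMTU against ABA the difference was -0.80 ± 0.39, and -0.33 without ABA replicate 1. The SFP1 order was DMTU, control, ABA+DMTU, ABA. The last 2 overlapped narrowly, since the lowest ABA array (10.51) lay just below the highest ABA+DMTU array (10.57).

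**Figure D2:**
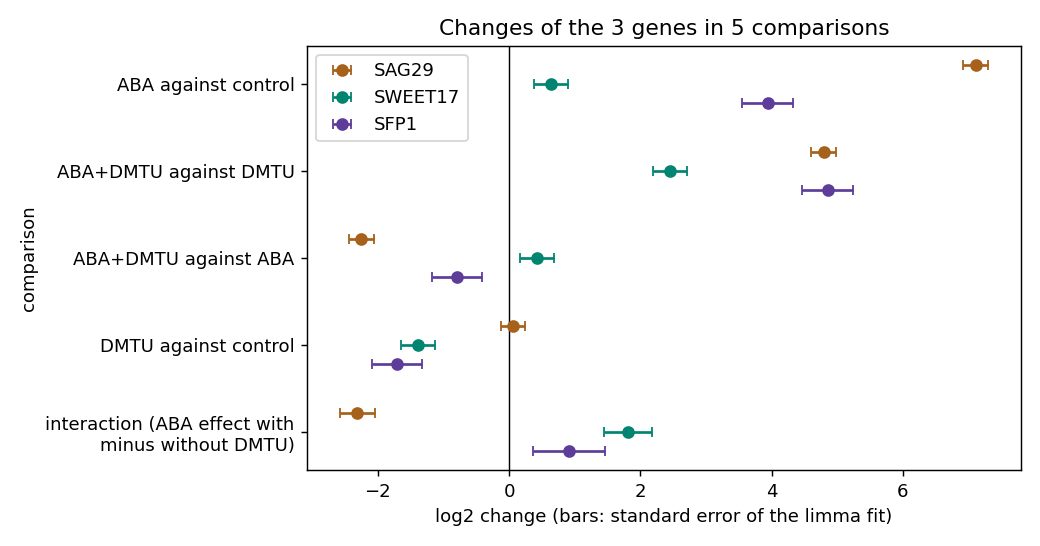
Log2 change (horizontal axis, points with standard error bars of the limma fit) of SAG29, SWEET17 and SFP1 in each of 5 comparisons (vertical axis). With DMTU the ABA changes of SAG29 and SFP1 are 4.80 and 4.85, while without DMTU they are 7.11 and 3.94.

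SAG29 thus differed from SWEET17 and SFP1 in where DMTU showed. For SAG29 the level with ABA differed, 12.24 ± 0.08 in ABA and 9.99 ± 0.19 in ABA+DMTU arrays, and the level without ABA did not differ beyond the spread. For SWEET17 and SFP1 the level without ABA differed. Their levels with ABA were close (SWEET17, 0.42 ± 0.26 in ABA+DMTU against ABA) or overlapped narrowly (SFP1, -0.80 ± 0.39). For SFP1 the DMTU difference had the same sign without ABA (-1.71 ± 0.39), and the interaction was 0.91 ± 0.55. A smaller DMTU difference with ABA than without it is therefore not established for SFP1. These comparisons share arrays: ABA and DMTU are both set against the same control arrays, and the interaction uses all 12. The ABA arrays did not overlap with control for 2 of the 3 genes, as for 20.7% of all probe sets in that direction. For ABA+DMTU above DMTU it was 3 of 3 (26.3% of all probe sets), and for DMTU below control 2 of 3 (17.4%). For ABA+DMTU below ABA it was 1 of 3 (15.3%), and for ABA+DMTU above ABA 1 of 3 (19.7%). Since these levels chose the genes, the counts are not evidence about them.

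The other SWEET genes were mostly at the low end of the scale. Of the 17 SWEET genes, 16 had a named probe set, which leaves 14 beside SAG29 and SWEET17. In 13 of these 14 the mean was below 5 in all 4 groups, between 3.42 and 4.82. No detection call was used here, so a low level does not show that a gene was silent. The list was made from general knowledge of the family, with results of these data known.

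SWEET2, which carries glucose analogues across the vacuolar membrane in roots, was the exception. Its control arrays had 6.04, 5.40 and 5.24 and its ABA arrays 8.84, 6.37 and 6.75. Its DMTU arrays had 4.83, 4.58 and 4.86 and its ABA+DMTU arrays 6.82, 6.58 and 6.67. As with SFP1, replicate 1 was the highest of both the control and the ABA arrays, and the groups with ABA lay above those without it.

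The SWEET2 rise was 1.76 ± 0.49 in ABA against control (adjusted p = 0.0156, limma) and 1.93 ± 0.49 in ABA+DMTU against DMTU (adjusted p = 0.00834). Without ABA replicate 1, the highest array, the former change was 1.00 ± 0.22 (adjusted p = 0.00492). Its call was lost without control replicate 2 or without control replicate 3, at an adjusted p of up to 0.0583. SWEET2 was the only one of the 14 other SWEET genes called in ABA against control, where 15.5% of all 22746 probe sets were called higher and 19.8% lower. With each array centred on its median, 3 of the 14 were called higher. The other 13 had changes between -0.05 and 0.33, and the median of the 14 was 0.08 beside 0.01 for all probe sets.

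In ABA+DMTU against DMTU, SWEET2 and SWEET10 were called higher and none lower, where 18.8% of all probe sets were called higher and 20.6% lower. The SWEET10 change was 0.35 ± 0.12 (adjusted p = 0.0369, limma), and was 0.21 without ABA+DMTU replicate 2. That call was lost without any 1 of the 3 DMTU arrays, ABA replicate 3 or ABA+DMTU replicate 2. Centring the arrays gave 4 higher calls. None of the 14 was called in DMTU against control, in ABA+DMTU against ABA or for the interaction. Over all probe sets 17.6%, 14.2% and 2.8% were called there. The SWEET2 change in DMTU against control was -0.80 ± 0.49 (adjusted p = 0.305, limma). Without ABA replicate 1, 1 of the 14 was called lower in DMTU against control. The same count held without both arrays numbered 1 of control and ABA. SWEET16, the closest relative of SWEET17 in Arabidopsis and also a carrier of the vacuolar membrane, had group means of 3.58 ± 0.07 (control), 3.65 ± 0.04 (ABA), 3.65 ± 0.12 (DMTU) and 3.81 ± 0.33 (both agents).

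**Figure D3:**
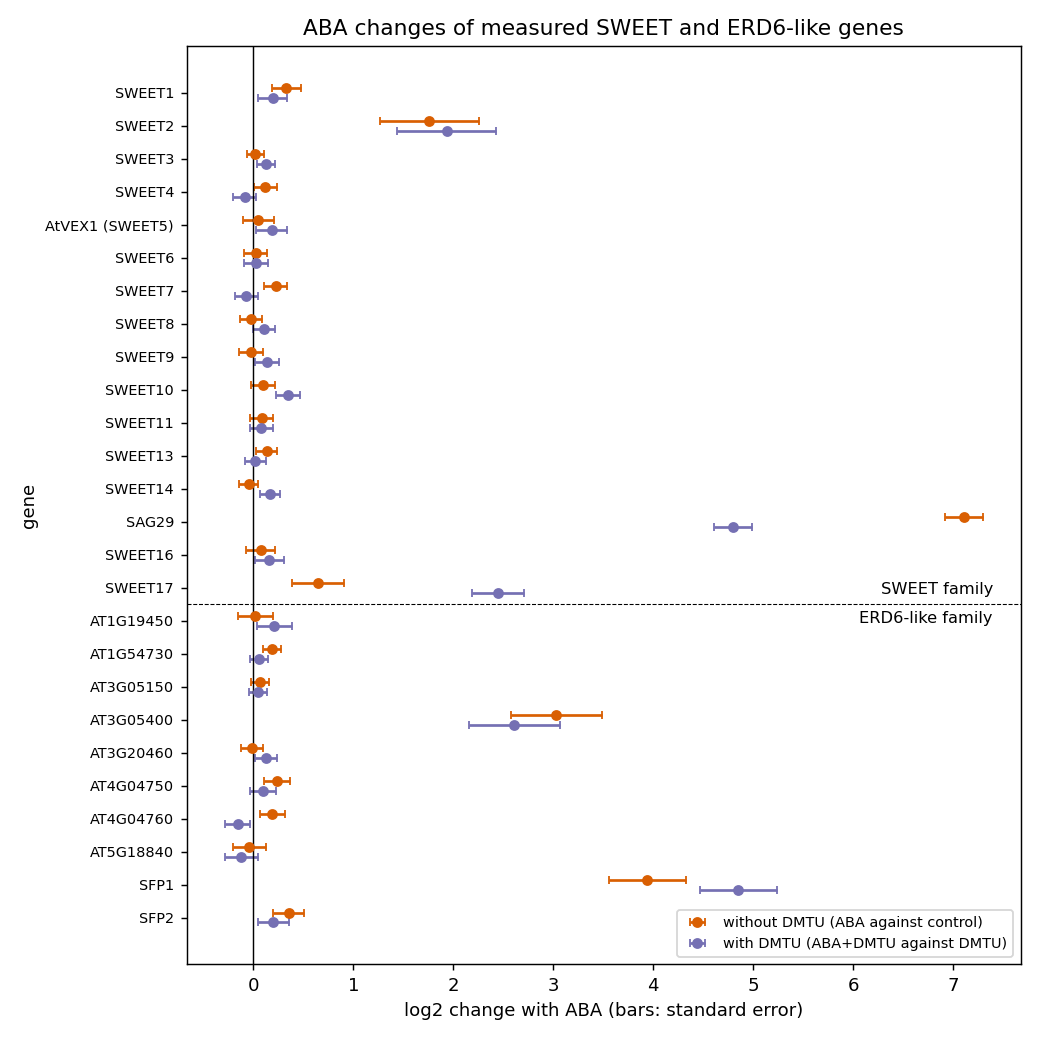
Log2 change with ABA (horizontal axis, points with standard error bars) of the 16 measured SWEET genes and the 10 measured ERD6-like genes (vertical axis), without DMTU and with DMTU. SAG29, SWEET17, SWEET2, SFP1 and AT3G05400 stand to the right of the other genes, whose changes lie between -0.16 and 0.35.

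Of 19 ERD6-like genes listed, 10 had a named probe set of their own, SFP1 among them. SFP2, the neighbour and relative of SFP1, stayed low. Its control arrays had 3.89, 3.88 and 4.01 and its ABA arrays 4.09, 4.12 and 4.63. Its changes of 0.35 ± 0.16 in ABA against control (adjusted p = 0.107, limma) and 0.20 ± 0.16 in ABA+DMTU against DMTU (adjusted p = 0.365) did not pass the test. Probe sequences were not used here, so whether the SFP1 probe set also takes up SFP2 transcript was not tested.

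AT3G05400 was the only one of the 9 other ERD6-like genes called in ABA against control, with a change of 3.03 ± 0.45 (adjusted p = 0.000318, limma). That is 1 of 9, beside 15.5% of all probe sets called higher. With each array centred on its median, 3 of the 9 were called higher there. AT3G05400 had 5.50, 4.61 and 4.91 on the control arrays and 9.41, 7.26 and 7.45 with ABA. With DMTU it had 5.13, 5.10 and 5.41, and with both agents 7.74, 7.85 and 7.89. Its change in ABA+DMTU against DMTU was 2.61 ± 0.45 (adjusted p = 0.000704), again the only call of the 9, beside 18.8% of all probe sets called higher. Without ABA replicate 1, the highest array, the ABA levels were below those of ABA+DMTU. None of the 9 was called in DMTU against control, ABA+DMTU against ABA or the interaction (17.6%, 14.2% and 2.8% of all probe sets).

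Among other monosaccharide and polyol transporters 13 of 34 listed genes were measured, and 0 of 9 listed sucrose transporters had a named probe set. In ABA against control 2 of the 13 were called higher and 2 lower, close to the 15.5% and 19.8% of all probe sets. AT1G67300 rose by 2.06 ± 0.32 (adjusted p = 0.000439, limma) and AT5G17010 by 1.04 ± 0.21 (adjusted p = 0.0024). TMT1, which loads sugars into the vacuole, fell by 0.66 ± 0.16 (adjusted p = 0.00624), and AT2G20780 fell by 0.43 ± 0.14 (adjusted p = 0.0374), a call lost in 10 of 16 alternatives, among them the centred arrays, the replicate block and the absence of any 1 control or ABA array. It was -0.28 with the arrays centred. In ABA+DMTU against DMTU 4 were called higher and 2 lower, beside 18.8% and 20.6% of all probe sets, and AT1G67300 rose by 2.31 ± 0.32 (adjusted p = 0.000154). Of the 4 higher calls, TMT2 was lost in 6 of 16 alternatives and AT5G17010 in 3 of 16. In DMTU against control only TMT1 was called, with a rise of 0.78 ± 0.16 (adjusted p = 0.00648), and in ABA+DMTU against ABA only AT5G61520, with a rise of 0.86 ± 0.15 (adjusted p = 0.00365). None of the 13 had an interaction that passed. Over all probe sets 17.6% were called in DMTU against control, 14.2% in ABA+DMTU against ABA and 2.8% in the interaction.

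Of 30 listed enzymes that make, cleave or phosphorylate sucrose and hexoses, 9 were measured. In ABA against control 1 was called higher and 3 lower, beside 15.5% and 19.8% of all probe sets. AT1G62660, from the invertases of that list, had 3.64, 3.64 and 3.97 in control and 9.80, 8.66 and 8.83 in ABA arrays. It had 3.61, 3.80 and 3.50 in DMTU and 5.11, 6.33 and 7.07 in ABA+DMTU arrays. Like SAG29, it was higher in both groups with ABA, and its ABA+DMTU arrays lay between the DMTU and the ABA arrays.

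AT1G62660 rose by 5.35 ± 0.42 in ABA against control (adjusted p = 2.87e-06, limma) and by 2.54 ± 0.42 in ABA+DMTU against DMTU (adjusted p = 0.000497). Its interaction of -2.80 ± 0.59 had an adjusted p of 0.0316 and was lost in 8 of 15 alternatives, the replicate block among them, at an adjusted p of up to 0.0865. Its means in control and DMTU arrays were near the arrays' lower quartiles, and how far the low end of the scale limits these sizes was not tested. cwINV6, a fructan-cleaving enzyme of the cell wall invertase family, fell by 3.05 ± 0.71 in ABA against control (adjusted p = 0.00562) and by 2.27 ± 0.71 in ABA+DMTU against DMTU. The latter (adjusted p = 0.0245) was -1.42 without ABA+DMTU replicate 1, and its call was lost without DMTU replicate 1 or 2 or ABA+DMTU replicate 1. From the fructokinases of the list, AT3G59480 fell by 1.44 ± 0.24 in ABA against control and fell by 1.84 ± 0.24 in ABA+DMTU against DMTU. AT5G51830 fell by 0.96 ± 0.14 and fell by 1.91 ± 0.14 in the same comparisons, all with an adjusted p of 0.000582 or less. In DMTU against control 3 of the 9 enzymes were called higher and none lower, beside 2135 higher and 1878 lower of all 22746 probe sets. AT5G51830 rose there by 1.38 ± 0.14 (adjusted p = 0.000151), AT3G59480 by 0.86 ± 0.24 (adjusted p = 0.0278, lost in 5 of 15 alternatives) and AT2G31390 by 0.81 ± 0.20 (adjusted p = 0.019, lost in 3 of 16).

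SAG29 and SFP1 are both known from leaf senescence, and 3 of 18 other senescence markers had a named probe set. WRKY6, a regulator active in senescing leaves, rose in ABA against control by 1.49 ± 0.12 (adjusted p = 2.76e-06, limma). WRKY53, another such regulator, fell by 2.18 ± 0.23 (adjusted p = 2.8e-05), and SAG101 fell by 1.68 ± 0.30 (adjusted p = 0.001). In ABA+DMTU against DMTU WRKY6 rose by 0.66 ± 0.12 (adjusted p = 0.000738) and WRKY53 fell by 2.04 ± 0.23 (adjusted p = 3.4e-05). SAG101 had -0.38 ± 0.30 there and did not pass the test. In ABA against control 1 of the 3 was called higher and 2 lower, beside 15.5% and 19.8% of all probe sets. In DMTU against control SAG101 changed by -1.05 ± 0.30 (adjusted p = 0.0336, limma) and WRKY53 by 0.78 ± 0.23 (adjusted p = 0.0407). Those calls were lost in 5 of 15 and 7 of 16 alternatives, and 17.6% of all probe sets were called there. The 3 measured markers did not all rise where SAG29 and SFP1 did.

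In the interaction 638 of 22746 probe sets were called (2.8%), and the count was 291 without DMTU replicate 2, 343 without ABA replicate 3 and 370 without ABA+DMTU replicate 2. Leaving out control replicate 2 or 3, DMTU replicate 1 or ABA+DMTU replicate 3 gave 385 to 416 calls. Among the measured genes of all lists other than SAG29, SWEET17 and SFP1, those called were AT1G62660, AT5G51830 (-0.95 ± 0.20) and WRKY6 (-0.83 ± 0.16), all negative. Of the 638 calls, 263 were positive and 375 negative. The interaction of SWEET17 was positive and that of SAG29 negative, as given above. With the arrays centred, calls in ABA against control went from 3518 higher and 4496 lower to 5036 and 3522, since centring moved the median change by 0.15. In ABA+DMTU against DMTU, 4274 and 4682 became 6753 and 3765, with a shift of 0.17.

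For each of the 3 genes, the 5 named genes with the most similar profile were sought among 13510 probe sets. The measure was the root-mean-square difference over the 12 arrays after each probe set was centred on its own mean. For SAG29 these were AT5G24080 (0.49), AT1G49450 (0.56), AT5G62800 (0.58), the carboxylesterase CXE18 (0.67) and AT5G53990 (0.72), against a median of 3.08 over all candidates. Their log2 changes in ABA against control lay between 5.41 and 7.21, and in ABA+DMTU against ABA between -2.63 and -0.96. AT1G49450 had the same kind of step as SAG29, with means of 3.80 ± 0.22 (control), 11.00 ± 0.34 (ABA), 3.97 ± 0.06 (DMTU) and 8.37 ± 1.17 (both agents).

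For SWEET17 the nearest were AT2G01870 (0.29), AT1G09310 (0.30), AT3G19800 (0.32), TBL25 of a wall acetylation family (0.33) and AT1G28570 (0.33), against a median of 0.99. All 5 were lower on average in DMTU than in control arrays, by -1.02 to -0.74. AT1G09310, for example, had means of 7.62 ± 0.19 (control), 8.31 ± 0.20 (ABA), 6.60 ± 0.28 (DMTU) and 9.01 ± 0.27 (both agents).

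For SFP1 they were WES1, an auxin-conjugating enzyme (0.35), AT5G39520 (0.36), AT2G26690 (0.38), which the gene table names NPF6.2 of a nitrate and peptide transporter family, AT4G33150 (0.48), which it names LKR/SDH of lysine breakdown, and AT5G41810 (0.54), against a median of 2.34. WES1 had means of 6.06 ± 0.12 (control), 10.08 ± 0.46 (ABA), 4.45 ± 0.29 (DMTU) and 9.32 ± 0.09 (both agents). Among the 3 transporters themselves the difference was 1.25 between SAG29 and SFP1, 1.60 between SWEET17 and SFP1 and 2.47 between SAG29 and SWEET17. These genes were picked for their likeness, so the values describe the pick and get no test.

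**Figure D4:**
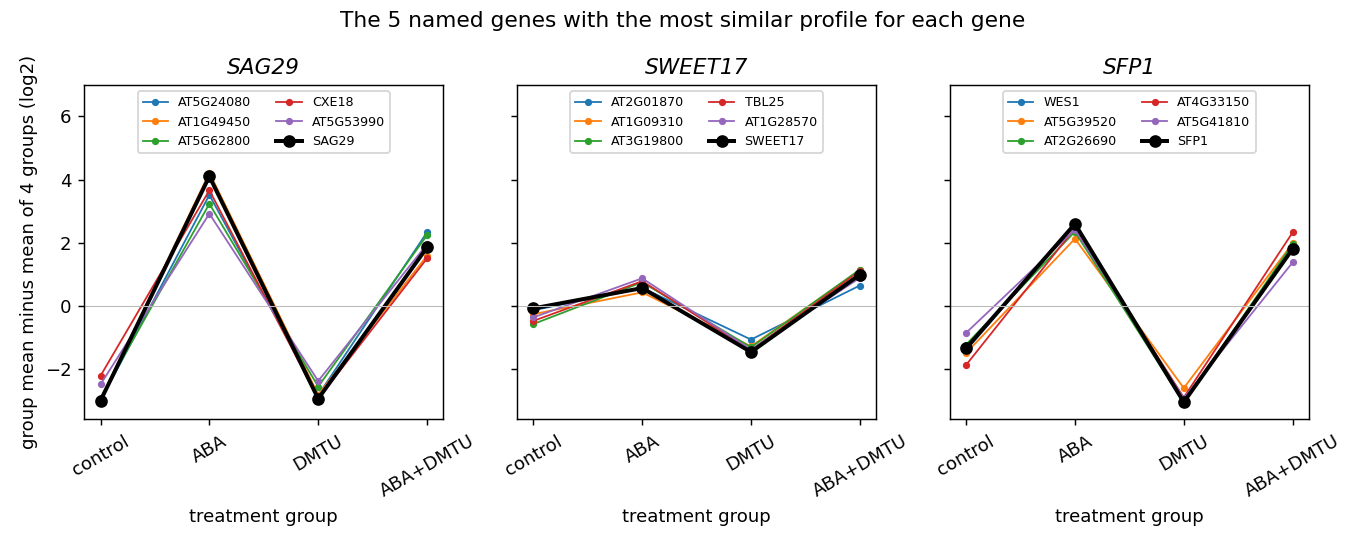
Group means minus the mean of the 4 groups (vertical axis, log2) by treatment group (horizontal axis) for SAG29, SWEET17 and SFP1 (black) and the 5 named genes with the most similar profile of each (colours). The ABA step leads for SAG29, the DMTU group lies lowest for SWEET17, and both hold for SFP1.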

How the data were processed

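The authors deposited 1 log2 level per probe set for each of 12 Affymetrix arrays. Per the labels' protocols, total RNA was labelled with a 3' kit. Per the submitters' processing notes the tools were RMA, which corrects background, equalises arrays and summarises probes, and limma, both with no version. A joint normalization of the 12 arrays is not given in the sources used here, and the values were used unscaled. Precision is limited by the number of arrays.

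Of 22810 probe sets, 64 controls were left out. Sample titles gave the groups and replicate numbers. Gene names came from the platform's annotation, updated through a RefSeq gene table of TAIR10.1: 13513 probe sets had 1 gene, 503 several, and 8730 are unnamed here. All 3 transporter genes passed, since no filter on low values was used. The files name no genome build, so no coordinates are given.

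A limma model (version 3.58.1, R 4.3.3) with 4 group means was fitted to all 12 arrays, which left 8 residual degrees of freedom. A probe set was called at a two-sided Benjamini-Hochberg adjusted p under 0.05 over 22746 probe sets. The fit was tested on simulated data for ABA against control over 22746 probe sets. Of these, 100 were changed by a log2 of 1 and 100 by 2. It called 65% of the former and 94% of the latter, with 8 false calls. The simulated noise was independent between arrays, and far fewer probe sets were changed than were called in the data. The rates thus do not give the power of the fit in these data. Errors of changes are standard errors of this fit, and those of levels are SDs. Separate cultures for the replicates are not stated in the labels. The p-values therefore measure only how far these samples spread, which may be technical.

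Deviations from the group mean correlated between same-numbered control and ABA arrays (r = 0.52, 0.42 and 0.39 for numbers 1, 2 and 3), but numbers 2 and 3 reached 0.44 and 0.41 with each other. The numbers pair those groups by a hint from the data, not by a label, and not in the other comparisons. The alternatives were centring of arrays, the replicate block, leaving out dim probe sets, and leaving out arrays.

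The 3 genes and the 7 lists, of 139 genes of which 52 had a named probe set, were chosen with earlier results of these data known, the lists from general knowledge. The named genes were the 3 transporters, the 5 most similar profiles of each, list members called and changed at least 2-fold (for lists other than transporters, the 3 largest per direction), and SFP2, ERD6 and SWEET16. ERD6 had no named probe set. SWEET10, AT2G20780, TMT1 and other changes under 2-fold were named after their values were seen. Python 3.11.15, pandas 2.3.3 and matplotlib 3.10.9 were used.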

Additional observations from a re-analysis of the deposited data

Results flagged for a closer look

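Among the measured genes of all lists other than SAG29, SWEET17 and SFP1, 3 had an ABA effect that differed between arrays with and without DMTU by limma's interaction term. The lists held 52 measured genes, with SAG29, SWEET17 and SFP1 included, and 2.8% of all 22746 probe sets were called. AT1G62660 had an interaction of -2.80 ± 0.59 (SE; adjusted p = 0.0316), AT5G51830 one of -0.95 ± 0.20 (adjusted p = 0.0288) and WRKY6 one of -0.83 ± 0.16 (adjusted p = 0.0248). Over the alternatives the adjusted p reached 0.0865, 0.0814 and 0.0671, and the calls were lost in 8 of 15, 6 of 16 and 7 of 16 alternatives.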

How the results depend on the processing

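For the 15 log2 changes of SAG29, SWEET17 and SFP1, 135 values under the alternatives differed from those reported, 130 of them by less than the spread between replicates. The rest of the 225 values are equal by construction, since the array left out was in neither group or the block is balanced. For a change between 2 groups, the spread comes from the same few arrays as the change. Leaving out 1 array cannot move such a change by as much as that spread. For those values the count of small moves was thus fixed in advance and does not show how stable the changes are. The sign turned only for SAG29 in DMTU against control, a change near 0 that ranged from -0.17 to 0.19 when 1 array was left out and was -0.17 without both arrays numbered 1 of control and ABA. Without those 2 arrays the SAG29 interaction was -2.04 and the SWEET17 change in ABA against control 0.97. With the replicate block, which is balanced and cannot move a change, the standard error of the SFP1 change in ABA against control went from 0.39 to 0.22, and 8068 probe sets were called in place of 8014. The block ended the calls of AT1G62660 in the interaction and AT2G20780 in ABA against control. Called probe sets in DMTU against control ranged from 2559 (without DMTU replicate 2) to 4537 when 1 array was left out, around 4013. For the interaction they ranged from 291 to 795 around 638, with 308 without dim probe sets and 1243 without both arrays numbered 1. The cause of these shifts was not tested. Leaving out dim probe sets also lowers the number of probe sets in the fit. Low signal limits what can be said of the other SWEET genes.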
